A study of Mus musculus with 8 samples.

Results

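Metallothioneins and zinc transporters were followed in mouse liver as 6 genes chosen by name from the 55487 genes of the deposited table. They were the metallothioneins Mt1 and Mt2, the importers Slc39a14 (ZIP14) and Slc39a4 (ZIP4), and the exporters Slc30a1 (ZnT1) and Slc30a10 (ZnT10). Each name matched 1 entry, and all 6 genes passed the filter on low values. The livers came from male C57BL/6N mice labelled WT, which were given a western diet (WD; high-fat food with 23.1 g/L fructose and 18.9 g/L glucose in the drinking water) or a normal chow diet with tap water (ND). Every mouse also had an injection into the peritoneum once a week, of either CCl4 or its corn oil vehicle. There was 1 library of WD + CCl4, and there were 2 of WD + oil, 2 of ND + CCl4 and 3 of ND + oil. The labels give no CCl4 dose, duration or age. They also do not say that the libraries of a group are from different mice, so p-values measure library-to-library spread, part or all of which may be technical.

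Metallothioneins are small cysteine-rich proteins that bind zinc and copper. In liver their genes are switched on by zinc itself, through the zinc-sensing factor MTF-1 and its metal response elements, and also by glucocorticoids and by inflammatory signals such as IL-6. ZIP proteins move zinc into the cytosol and ZnT proteins move it out. ZIP14, an importer of zinc, iron and manganese, is induced in hepatocytes during the acute phase response. ZIP4 is best known as the importer of dietary zinc in the intestine. ZnT1 exports zinc across the plasma membrane and is itself an MTF-1 target, whereas ZnT10 exports manganese.

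Mt1 and Mt2 are neighbours on chromosome 8, on the same strand and 5513 bases apart. By GENCODE M21 on GRCm38, Mt2 (ENSMUSG00000031762) runs from 94172664 to 94173568 and Mt1 (ENSMUSG00000031765) from 94179082 to 94180327, and both are protein coding. Slc39a14 (ENSMUSG00000022094) lies on chromosome 14 from 70303469 to 70351425 and Slc39a4 (ENSMUSG00000063354) on chromosome 15 from 76612383 to 76617384. Both exporters lie on chromosome 1, Slc30a10 (ENSMUSG00000026614) from 185454848 to 185468762 and Slc30a1 (ENSMUSG00000037434) from 191906767 to 191913247. Each is overlapped by a gene on the other strand, Slc30a10 by Gm2061 and Slc30a1 by 1700034H15Rik.

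RefSeq start windows (GRCm38.p6, 250 bases before to 50 after the start) were found for 4 of the 6 genes. The windows of Mt1 (chr8:94178839-94179138, + strand), Mt2 (chr8:94172368-94172667, + strand) and Slc30a1 (chr1:191906531-191906830, + strand) are printed here because these 3 genes are textbook MTF-1 targets. Capitals mark matches on either strand to the core of the metal response element, searched as TGCACNC or TGCGCNC.
Mt1: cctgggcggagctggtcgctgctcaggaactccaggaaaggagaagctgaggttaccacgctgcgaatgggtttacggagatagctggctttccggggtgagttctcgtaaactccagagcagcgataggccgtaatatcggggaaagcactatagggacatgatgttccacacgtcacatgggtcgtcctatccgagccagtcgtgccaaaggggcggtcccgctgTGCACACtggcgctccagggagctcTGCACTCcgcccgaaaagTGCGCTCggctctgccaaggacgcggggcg
Mt2: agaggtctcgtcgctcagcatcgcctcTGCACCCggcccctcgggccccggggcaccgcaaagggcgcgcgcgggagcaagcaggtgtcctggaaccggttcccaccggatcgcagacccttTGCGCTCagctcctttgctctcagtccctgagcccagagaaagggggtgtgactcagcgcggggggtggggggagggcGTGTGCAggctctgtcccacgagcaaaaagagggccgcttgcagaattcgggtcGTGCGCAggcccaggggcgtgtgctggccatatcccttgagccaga
Slc30a1: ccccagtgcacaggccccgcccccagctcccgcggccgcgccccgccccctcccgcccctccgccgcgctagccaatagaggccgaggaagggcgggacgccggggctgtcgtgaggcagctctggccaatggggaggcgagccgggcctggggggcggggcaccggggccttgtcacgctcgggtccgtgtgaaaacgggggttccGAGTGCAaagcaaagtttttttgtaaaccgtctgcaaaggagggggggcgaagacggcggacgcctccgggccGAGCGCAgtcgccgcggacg
The Mt1 window held 3 such matches, beginning at -23, 3 and 21 from the start, and the Mt2 window held 4, beginning at -223, -128, -50 and 5. The Slc30a1 window held 2. The Slc30a10 window held 3, of which 2 overlap each other. At least 1 match was present in 25.7% of all 32851 windows, at least 2 in 7.11% and at least 3 in 1.97%. For the antioxidant response element (TGACNNNGC), Mt2 and Slc30a1 had 1 match each and the other windows 0, against 12.4% of all windows with a match. Mt1 had 1 match to the glucocorticoid response element (ACANNNTGT), which 6.85% of windows held, and the STAT motif (TTCNNNGAA), found in 8.3%, was in 0 of the 4. These matches are descriptions of letters only.

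Values are FPKM, fragments scaled by transcript length and by the mapped fragments of the library, made by the authors. Counts were not analysed here, so depth is unknown. A library's FPKM sum lay between 514832 and 612747. Genes that reached 1 FPKM in 2 or more libraries, 11514 in all, were tested with limma on log2(FPKM + 1), called at an adjusted p below 0.05. FPKM is a share of a library: Mup genes, which encode major urinary proteins, held 8.22% in WD + CCl4, 9.16% and 10.04% in WD + oil, 2.80% and 4.65% in ND + CCl4, and 16.9% to 32.5% in ND + oil. Over all tested genes, the median change against ND + oil on the log2 scale was 0.19 for WD + CCl4, 0.22 for WD + oil and 0.26 for ND + CCl4, and each member's change stands beside these shifts. The 3 comparisons share the ND + oil libraries. The 8 hepatocyte markers (Alb, Ttr and others) were above 0 in every library, and the pancreas list was at 0 in 4 libraries and summed to at most 0.674 FPKM in the others. In whole liver, fewer cells of a type and less RNA per cell cannot be told apart.

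The metallothioneins were the most variable members, and much of the spread lay inside the groups. Mt1 had 1578 FPKM in WD + CCl4, 197 and 818 in WD + oil, 268 and 56.2 in ND + CCl4, and 323, 90.8 and 8.28 in ND + oil. The lone WD + CCl4 library was thus the highest and ND + oil library 3 the lowest, with a ratio of 191 between them. The WD + CCl4 library lay above all of ND + oil, as it did for 51.5% of tested genes, and the other groups overlapped with ND + oil. Within ND + oil alone the highest Mt1 value was 39.0 times the lowest. Mt2 had 1193 FPKM in WD + CCl4, 122 and 699 in WD + oil, 174 and 29.2 in ND + CCl4, and 209, 50.1 and 2.08 in ND + oil. Its range was 575-fold over all libraries and 101-fold within ND + oil. Among the 11514 tested genes, the SD of log2(FPKM + 1) over the 3 ND + oil libraries ranked Mt2 in place 3 and Mt1 in place 9, at 3.10 and 2.60 against a median of 0.187.

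**Figure D1:**
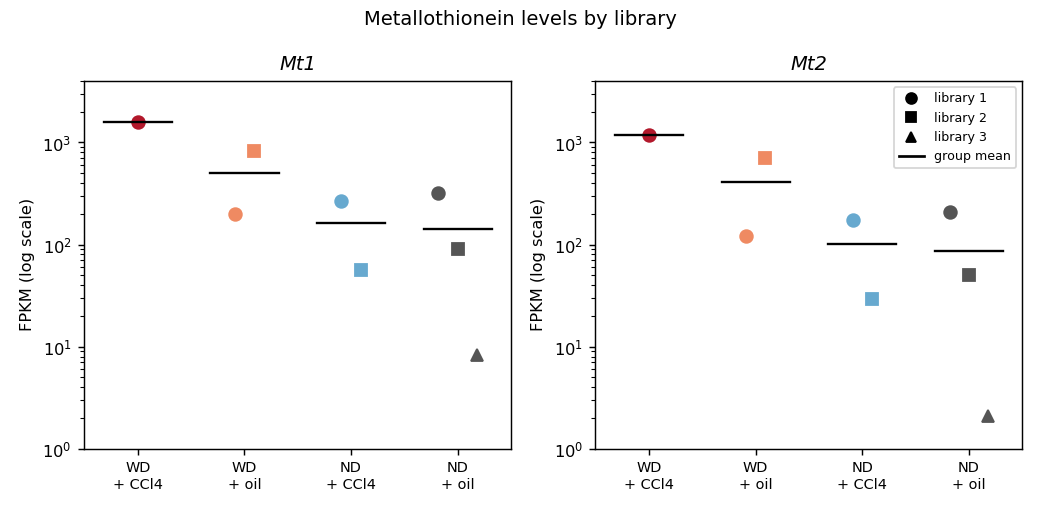
FPKM of Mt1 and Mt2 on a log axis in each library, grouped by diet and injection; symbols mark the library number and bars the group mean. WD + CCl4 stands highest at 1578 and 1193 FPKM, and ND + oil spreads from 8.28 to 323 for Mt1 and from 2.08 to 209 for Mt2.

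No metallothionein change passed the test in any comparison. Mt1 was higher by 4.60 ± 1.76 (SE) on the log2 scale in WD + CCl4 against ND + oil (limma adjusted p = 0.267), by 2.63 ± 1.39 in WD + oil (limma adjusted p = 0.302) and by 0.93 ± 1.39 in ND + CCl4 (limma adjusted p = 0.664). The 95% intervals ran from 0.54 to 8.66, from -0.58 to 5.84 and from -2.28 to 4.14, a width of several log2 units in each comparison. Mt2 gave 5.22 ± 2.08, 3.19 ± 1.65 and 1.18 ± 1.65 in the same comparisons (limma adjusted p = 0.290, 0.291 and 0.644). With each library left out in turn, the WD + oil values lay between 1.22 and 3.79 for Mt1 and between 1.50 and 4.55 for Mt2, lowest without ND + oil library 3 and next lowest without WD + oil library 2. The WD + CCl4 values lay between 3.20 and 5.76 for Mt1 and between 3.53 and 6.57 for Mt2. For ND + CCl4 against ND + oil the direction rested on single libraries: without ND + oil library 3, the Mt1 value became -0.48 and the Mt2 value -0.51, and without ND + CCl4 library 1 they became -0.19 and -0.09. The interaction of diet and CCl4 was 1.04 ± 2.32 for Mt1 and 0.85 ± 2.76 for Mt2 (limma adjusted p = 0.863 and 0.905).

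Mt1 and Mt2 varied together from library to library. They ranked the 8 libraries in the same order. Pearson's r of log2(FPKM + 1) was 0.999 (exact permutation p = 2.48e-05, the smallest that 8 libraries allow, two-sided; 0.000372 adjusted over the 15 pairs of members) and Spearman's rho was 1 (exact permutation p = 4.96e-05, adjusted 0.000744). Without WD + CCl4 library 1 and ND + oil library 3, the farthest from the median, r was 0.999, and between deviations from the group means it was 0.9996. Shared sequence between the pair was also counted. Of 1273 stretches of 31 bases in the annotated Mt1 transcripts, 0 occurred in transcripts of another gene, and of 573 in Mt2, 3 did, all in Pip5k1a. The ratio of Mt1 to Mt2 was not constant. It was 1.32 in WD + CCl4, 1.61 and 1.17 in WD + oil, 1.54 and 1.92 in ND + CCl4, and 1.54, 1.81 and 3.99 in ND + oil, lowest in WD + oil library 2 and highest in the library with the least metallothionein. An antisense gene that overlaps Mt2, Gm45774, had 9.92 FPKM in WD + CCl4, 8.86 and 26.0 in WD + oil, 3.80 and 0.418 in ND + CCl4, and 8.98, 3.57 and 0.303 in ND + oil. The kit marks strand, but the sources used here do not say whether strand was used in quantification. Whether fragments of Mt2 and Gm45774 were told apart where these genes overlap is thus unknown.

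**Figure D2:**
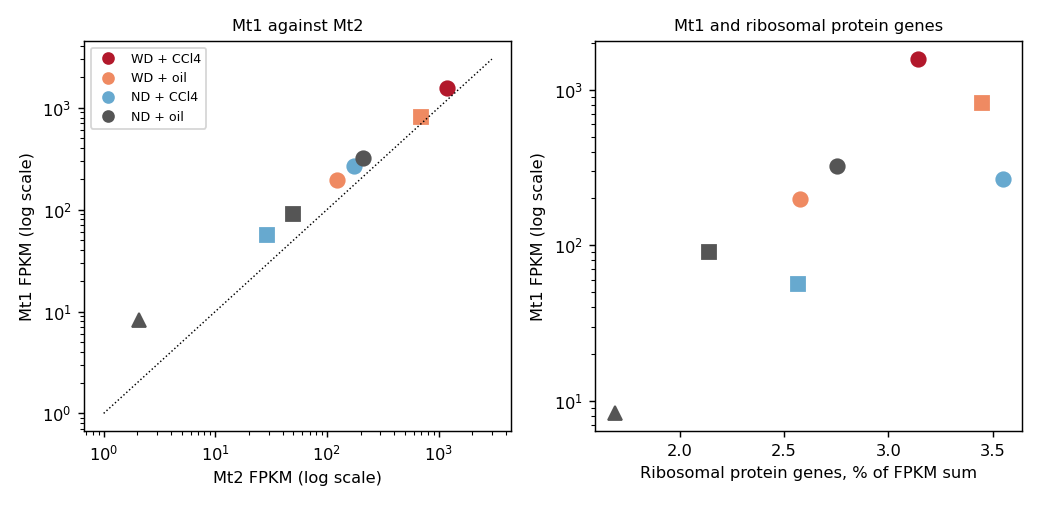
Left, Mt1 against Mt2 in FPKM on log axes with a dotted line of equality; right, Mt1 FPKM (log axis) against the percentage of the FPKM sum held by 80 ribosomal protein genes. Each symbol is a library coloured by group. The pair runs along 1 line from 2.08 to 1193 FPKM of Mt2, and ND + oil library 3 has both the least Mt1 and the smallest ribosomal protein share, 1.69%.

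After each other, the genes most like Mt1 over the 8 libraries were Rpl13a (r = 0.980), Rps14 (0.970), Tspo (0.958) and Rpl37a (0.944), out of 3295 genes that span at least 1 log2 unit. For Mt2 they were Rpl13a (0.982), Rps14 (0.975), Tspo (0.961) and Rps9 (0.949). Tspo is a cholesterol-binding protein of the outer mitochondrial membrane, and the others encode ribosomal proteins. Their swing was small beside that of Mt1: Rpl13a lay at 489 FPKM in WD + CCl4, 343 and 497 in WD + oil, 402 and 291 in ND + CCl4, and 423, 340 and 225 in ND + oil. Together, 80 ribosomal protein genes, a group looked at after these values were seen, held 3.14% of the FPKM sum in WD + CCl4, 2.58% and 3.45% in WD + oil, 3.55% and 2.57% in ND + CCl4, and 2.75%, 2.14% and 1.69% in ND + oil. Protein-coding genes whose longest annotated transcript has at most 1000 bases, 514 in number, had a median deviation from their own mean of 0.14 log2 units in WD + CCl4, 0.02 and 0.32 in WD + oil, 0.11 and -0.01 in ND + CCl4, and 0.09, -0.20 and -0.51 in ND + oil. Over all 10039 tested coding genes this median was 0.05 in WD + CCl4, 0.10 and 0.07 in WD + oil, 0.21 and 0.03 in ND + CCl4, and -0.15, -0.09 and -0.21 in ND + oil. Both medians were thus lowest in the library with the least metallothionein. The part of short transcripts in the metallothionein values was not tested.

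Genes of other signals known to act on metallothionein genes were read beside them. Mtf1, the zinc sensor, had 1.56 FPKM in WD + CCl4, 1.58 and 1.54 in WD + oil, 1.64 and 1.44 in ND + CCl4, and 1.85, 1.35 and 1.50 in ND + oil. Of 18 acute phase and IL-6 response genes, 0 passed limma's adjusted p in any comparison against ND + oil, where 0.929% (WD + CCl4), 4.41% (WD + oil) and 1.42% (ND + CCl4) of all tested genes passed. Over the alternatives 0 to 2 of them were called in WD + CCl4, 0 in WD + oil and 0 to 2 in ND + CCl4. An unadjusted p below 0.05 was found for 13, 5 and 5 of them in these comparisons, beside 15.3%, 23.3% and 22.8% of all tested genes. The medians of their log2 fold changes were 1.48, 0.52 and -0.31, beside 0.19, 0.22 and 0.26 over all genes. Lipocalin 2 (Lcn2), an iron-siderophore binding protein of the acute phase that is named here after its values were seen, had 1961 FPKM in WD + CCl4, 284 and 786 in WD + oil, 235 and 20.2 in ND + CCl4, and 35.7, 124 and 8.05 in ND + oil. It was highest in WD + CCl4 and lowest in ND + oil library 3, as Mt1 and Mt2 were, but this held for 2 of the 18 genes (Lcn2 and Orm2). Of the 18, 13 were highest in WD + CCl4, whereas 12 were lowest in ND + CCl4 library 2 and 4 in ND + oil library 3.

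Of 12 glucocorticoid receptor targets, 1 passed, Fkbp5, a cochaperone of that receptor. It had 28.8 and 21.9 FPKM in ND + CCl4, against 4.20, 2.69 and 2.88 in ND + oil (2.63 ± 0.38, limma adjusted p = 0.025). The call was lost in 5 of 15 alternatives: with no filter, with the replicate block, and without ND + CCl4 library 1 or ND + oil library 2 or 3 (limma adjusted p up to 0.166). In WD + CCl4 it had 17.6 FPKM (2.15 ± 0.48, limma adjusted p = 0.0977). In the glucocorticoid list 3, 3 and 5 of the 12 genes were below an unadjusted p of 0.05 in WD + CCl4, WD + oil and ND + CCl4, beside 15.3%, 23.3% and 22.8% of all genes. The median of the list was -0.15 in WD + CCl4, 0.15 in WD + oil and 0.30 in ND + CCl4. Of 11 tested NRF2 and oxidative stress genes 4 rose in ND + CCl4 (Gstm3, Gsta2, Gsta1 and Nqo1, with log2 fold changes of 3.51, 3.16, 4.96 and 1.49; limma adjusted p = 0.0044, 0.00518, 0.0327 and 0.0435) and 0 in the other comparisons, where 1 in WD + CCl4 and 4 in WD + oil were below an unadjusted p of 0.05, beside 15.3% and 23.3% of all genes. The share of all tested genes called in ND + CCl4 was 1.42%. With no filter 0 of the 4 were called, and over the other alternatives the list held 1 to 5 calls. Gstm3 was called in 14 of 15 alternatives and Gsta2 in 13 of 15, Gsta1 in 5 of 15 and Nqo1 in 4 of 14. The list held 1 call without ND + CCl4 library 1, and 2 without ND + oil library 2 or 3 or WD + oil library 1 or 2. Its median log2 fold change was 0.53 in WD + CCl4, 0.35 in WD + oil and 1.20 in ND + CCl4. Of the 6 neutrophil markers 5 were tested, and 5 rose in WD + CCl4, 1 in WD + oil and 0 in ND + CCl4 by limma's adjusted p. Of all tested genes 0.929%, 4.41% and 1.42% were called in these comparisons, and the WD + CCl4 calls rest on its single library. The 4 with the smallest p in WD + CCl4 were Camp, Ngp, S100a9 and Retnlg. Camp and Ngp, proteins of neutrophil granules, had 23.8 and 36.7 FPKM in WD + CCl4 and were listed at 0 in all ND + oil and ND + CCl4 libraries, so no fold is given. Both passed the filter only through western diet libraries. Retnlg did so too, at 13.4 FPKM in WD + CCl4, 0.597 and 1.04 in WD + oil and at most 0.381 elsewhere. The calls of Camp, Ngp and Retnlg are therefore no support for a change. The log2 fold change of S100a9 was 6.12. Over 14 alternatives 2 to 6 were called in WD + CCl4, with 2 when WD + oil library 2 was left out. In WD + oil the 1 call (S100a9) became 0 in 6 of 15 alternatives, among them those without WD + oil library 2, ND + oil library 1 or ND + oil library 3. The 6 summed to 477 FPKM in WD + CCl4, 20.8 and 42.2 in WD + oil, 6.32 and 4.22 in ND + CCl4, and 1.77 to 9.02 in ND + oil. Their part in the metallothionein values was not tested.

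Among the transporters, Slc39a4 was the 1 member called in any comparison. It had 24.1 FPKM in WD + CCl4, 14.3 and 13.0 in WD + oil, 23.4 and 17.6 in ND + CCl4, and 4.93, 6.91 and 8.99 in ND + oil. All 5 libraries outside ND + oil lay above all 3 within it, as was so for 21.4% of tested genes. In ND + CCl4 it averaged 20.5 ± 4.13 FPKM (SD, n = 2), against 6.94 ± 2.03 in ND + oil (n = 3), and this rise of 1.45 ± 0.24 log2 units passed (limma adjusted p = 0.0355). It was the 1 of 6 members called in that comparison, in which 1.42% of all tested genes were called. In WD + CCl4 the change was 1.69 ± 0.31 (limma adjusted p = 0.0546) and in WD + oil 0.91 ± 0.24 (limma adjusted p = 0.0729), just outside the threshold, with 0 of 6 members called in comparisons that called 0.929% and 4.41% of all genes. Unadjusted p-values below 0.05 were found for 3 members in WD + CCl4 (Mt1, Mt2 and Slc39a4), 1 in WD + oil (Slc39a4) and 2 in ND + CCl4 (Slc39a4 and Slc30a10), where such values covered 15.3%, 23.3% and 22.8% of all genes.

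The order of the Slc39a4 levels was WD + CCl4, ND + CCl4, WD + oil and ND + oil. Between neighbours in this order, WD + CCl4 and ND + CCl4 differed by 0.24 ± 0.32 (limma adjusted p = 0.971), and WD + oil and ND + CCl4 by -0.54 ± 0.26 (limma adjusted p = 0.507), where both WD + oil libraries lay below both ND + CCl4 libraries, as was so for 22.8% of genes. The interaction of diet and CCl4 was -0.68 ± 0.40 (95% interval -1.61 to 0.26; limma adjusted p = 0.570). The call in ND + CCl4 depended on scale and on single libraries: with median-of-ratios scaling the change was 1.15 (limma adjusted p = 0.0992), and after removal of the Mup genes it was 1.32 (limma adjusted p = 0.0939). When each library was left out in turn, limma's adjusted p was between 0.0211 and 0.215, and it was above 0.05 without ND + CCl4 library 1, ND + oil library 1 or 2, or WD + oil library 1 or 2. The direction was the same in the 15 alternatives run, and the change lay between 1.15 and 1.65. In WD + oil the adjusted p passed in 0 of 15 alternatives, and the change lay between 0.67 and 1.10. In WD + CCl4 the adjusted p passed in 3 of 14 alternatives, without ND + CCl4 library 1 or 2 or ND + oil library 3. Genes most like Slc39a4 over the libraries were Rarg, a retinoic acid receptor (r = 0.981), Tmem159 (0.979), Mapk14, the p38 alpha stress kinase (0.978), Tes (0.970) and Mthfd2l (0.966). Mapk14 lay at 15.2 FPKM in WD + CCl4, 12.9 and 13.2 in WD + oil, 17.6 and 14.3 in ND + CCl4, and 7.86, 10.00 and 10.4 in ND + oil. Cholangiocyte markers, of which 1 of 6 was at 0 in every library, summed to 174 FPKM in WD + CCl4, 60.4 and 97.2 in WD + oil, 459 and 28.6 in ND + CCl4, and 18.5 to 39.8 in ND + oil. The 10 Kupffer cell and macrophage markers summed to 431, to 521 and 1067, to 431 and 149, and to 66.8 to 142 FPKM in the same order of groups. By limma 8 of these 10 rose in WD + oil, among them Marco, Timd4, Cd5l and C1qa at 3.65, 1.77, 3.13 and 2.64 on the log2 scale, and 0 in WD + CCl4 and ND + CCl4. Of all tested genes, 4.41% were called in WD + oil, 0.929% in WD + CCl4 and 1.42% in ND + CCl4. The 8 calls became 0 with no filter and without either WD + oil library, 1 with the replicate block and without ND + oil library 1 or 2, and 5 without ND + oil library 3. The cholangiocyte sum was mostly Spp1, with 170 FPKM in WD + CCl4, 58.4 and 94.8 in WD + oil, 455 and 26.8 in ND + CCl4, and 19.2, 39.1 and 17.3 in ND + oil. Without Spp1 the other 5 markers summed to 4.09 FPKM in WD + CCl4, 1.97 and 2.39 in WD + oil, 3.56 and 1.78 in ND + CCl4, and 0.369, 0.636 and 1.26 in ND + oil. The macrophage sum and this sum both lay above all of ND + oil in the 5 libraries outside it, as 21.4% of single tested genes did. The sum of the 7 stellate cell and myofibroblast markers did so too, whereas Col1a1, Col3a1 and Acta2 on their own did not. This sum was 67.9 FPKM in WD + CCl4, 90.3 and 102 in WD + oil, 152 and 47.6 in ND + CCl4, and 28.6 to 37.9 in ND + oil. It was mostly Dcn. Dcn had 53.3 FPKM in WD + CCl4, 72.4 and 77.4 in WD + oil, and 78.4 and 36.2 in ND + CCl4. In ND + oil it had 23.2 to 27.0 FPKM. The endothelial, erythroid and neutrophil sums did not. The endothelial sum was 26.4 FPKM in WD + CCl4, against 29.5 in ND + oil library 3. In ND + CCl4 the erythroid sum was 253 and 282 FPKM, against 350 in ND + oil library 3. The neutrophil sum there was 6.32 and 4.22 FPKM, against 9.02 in ND + oil library 2. Of the 10 macrophage markers, 2 had changes below 0 in ND + CCl4 (Timd4 at -0.61 and Marco at -0.33) and 1 in WD + CCl4 (Timd4 at -0.22). The part of any of these in the Slc39a4 change was not tested.

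**Figure D3:**
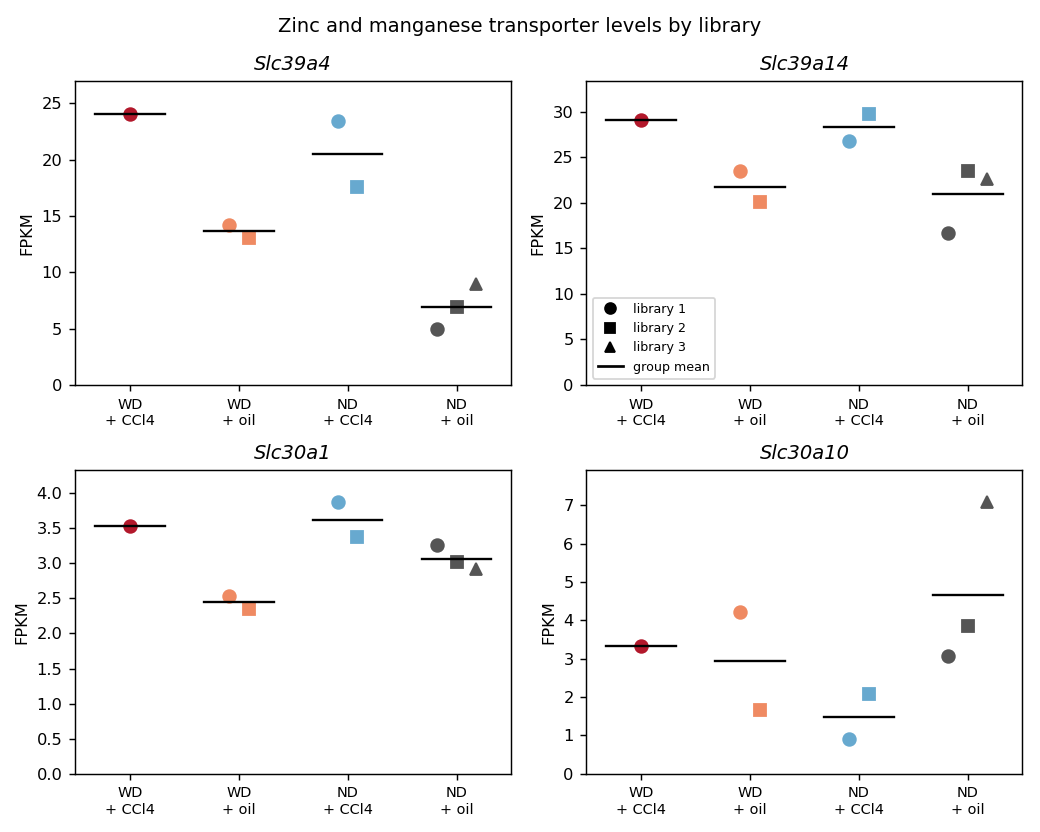
FPKM of the importers Slc39a4 and Slc39a14 and the exporters Slc30a1 and Slc30a10 in each library, on linear axes from 0; symbols mark the library number and bars the group mean. Slc39a4 is at 13.0 FPKM or more in the 5 libraries outside ND + oil and at 8.99 or less in ND + oil.

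Slc39a14, the acute phase importer, was expressed more evenly. It had 29.0 FPKM in WD + CCl4, 23.5 and 20.0 in WD + oil, 26.8 and 29.8 in ND + CCl4, and 16.6, 23.5 and 22.6 in ND + oil. The WD + CCl4 library lay above all of ND + oil, as it did for 51.5% of tested genes, and so did both ND + CCl4 libraries, as for 41.8%. The changes did not pass: they were 0.47 ± 0.25 in WD + CCl4, 0.06 ± 0.20 in WD + oil and 0.43 ± 0.20 in ND + CCl4 (limma adjusted p = 0.423, 0.874 and 0.236). The value in WD + oil became -0.19 with median-of-ratios scaling. The 95% interval in ND + CCl4 ran from -0.03 to 0.89. Over the libraries, no relation of Slc39a14 with Mt1 passed (r = -0.04, rho = -0.14, exact permutation p = 0.927 and 0.752, adjusted 0.953 and 0.752; r = -0.66 without WD + CCl4 library 1 and ND + oil library 3). Its r with Slc39a4 was 0.807 and rho 0.762 (exact permutation p = 0.0153 and 0.0368, adjusted over the 15 pairs 0.115 and 0.276; r = 0.661 without ND + CCl4 library 2 and ND + oil library 1), and it did not pass. Between deviations from the group means, r of Slc39a14 was -0.76 with Mt1 and 0.59 with Slc39a4, and these values were not tested. The genes most like Slc39a14 were Nab2 (r = 0.983), a corepressor of EGR factors, and Id2 (0.980), an inhibitor of helix-loop-helix factors, followed by Gvin1 (0.970), Sowahb (0.953) and Sertad3 (0.941). Id2 had 50.7 FPKM in WD + CCl4, 28.0 and 24.6 in WD + oil, 45.0 and 51.0 in ND + CCl4, and 18.1, 33.5 and 32.9 in ND + oil.

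The zinc exporter Slc30a1 was low and varied little. It had 3.54 FPKM in WD + CCl4, 2.54 and 2.35 in WD + oil, 3.87 and 3.37 in ND + CCl4, and 3.26, 3.02 and 2.92 in ND + oil. Its highest value was 1.65 times its lowest over libraries in which Mt1 ranged 191-fold. The WD + oil libraries lay below all of ND + oil, as did those of 5.18% of tested genes, and the ND + CCl4 libraries above, as did those of 41.8%. The changes were 0.16 ± 0.18 in WD + CCl4, -0.24 ± 0.14 in WD + oil and 0.18 ± 0.14 in ND + CCl4 (limma adjusted p = 0.722, 0.355 and 0.416). With median-of-ratios scaling the values in WD + CCl4 and ND + CCl4 turned to -0.02 and -0.07. WD + oil against ND + CCl4 gave -0.42 ± 0.15 (limma adjusted p = 0.356), and 0 of 6 members were called there, against 0.617% of all genes. No relation of Slc30a1 with Mt1 passed either (r = 0.04, rho = 0.14, exact permutation p = 0.923 and 0.752, adjusted 0.953 and 0.752; r = -0.42 without the same 2 libraries as above). Between deviations from the group means, r of Slc30a1 with Mt1 was 0.60, and this value was not tested. Pla1a, a phosphatidylserine phospholipase, was most like Slc30a1 (r = 0.912), before Fam234b, Rec8, Rdh16f2 and Klf9 (0.897 to 0.879).

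The manganese exporter Slc30a10 had its lowest mean in ND + CCl4, though the change did not pass. It had 3.33 FPKM in WD + CCl4, 4.21 and 1.67 in WD + oil, 0.894 and 2.07 in ND + CCl4, and 3.07, 3.86 and 7.08 in ND + oil. The ND + CCl4 libraries lay below all of ND + oil, which was so for 3.8% of tested genes, while the other groups overlapped with ND + oil. In ND + CCl4 it averaged 1.48 ± 0.828 FPKM (SD, n = 2), against 4.67 ± 2.12 in ND + oil (n = 3), a log2 fold change of -1.17 ± 0.38 that did not pass (limma adjusted p = 0.154). The changes were -0.33 ± 0.48 in WD + CCl4 and -0.54 ± 0.38 in WD + oil (limma adjusted p = 0.796 and 0.437). The interaction of diet and CCl4 was 1.39 ± 0.64 (95% interval -0.09 to 2.87, limma adjusted p = 0.521). Its relation with Mt1 did not pass (r = -0.52, rho = -0.45, exact permutation p = 0.1823 and 0.2675, adjusted 0.5885 and 0.6687). Without WD + CCl4 library 1 and ND + oil library 3, r was -0.32. Between deviations from the group means it was -0.935, which was not tested. Most like Slc30a10 were Avpr1a, a vasopressin receptor (r = 0.918), Hsd3b7, an enzyme of bile acid synthesis (0.912), Phospho1 (0.897), Mup1 (0.894) and Tymp (0.893). Mup1 is a male-biased secreted protein of hepatocytes and had 839 FPKM in WD + CCl4, 1148 and 972 in WD + oil, 115 and 877 in ND + CCl4, and 1868, 1853 and 7753 in ND + oil.

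**Figure D4:**
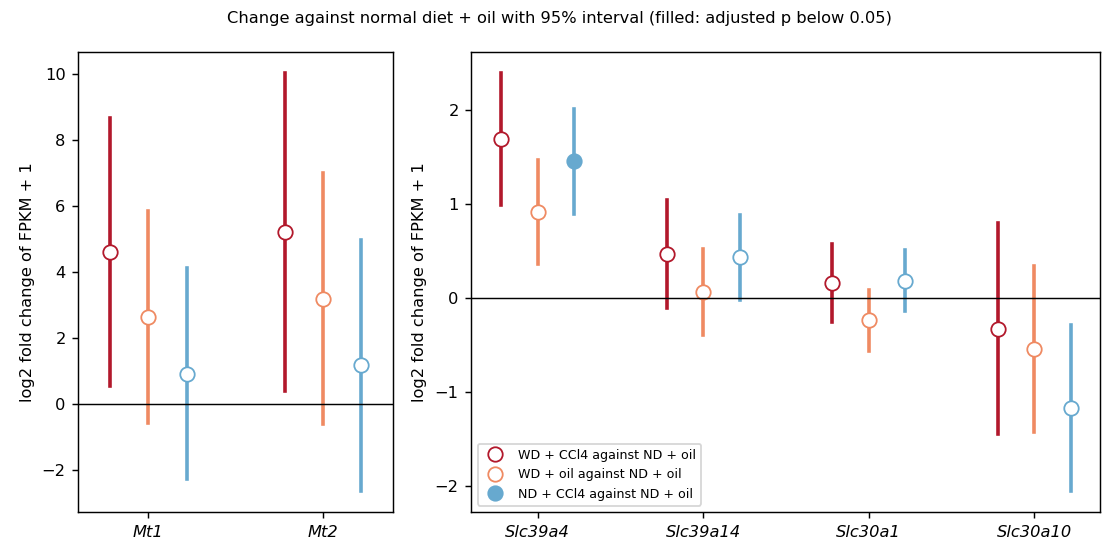
Log2 fold change of FPKM + 1 against ND + oil for each member in WD + CCl4, WD + oil and ND + CCl4, with bars for the 95% interval; a filled symbol passed at an adjusted p below 0.05. Slc39a4 in ND + CCl4, at 1.45, is the filled symbol, and the interval of Mt2 in WD + CCl4 reaches 10.03 log2 units.

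In the 3 remaining pairs and the interaction, 0 of 6 members passed limma. For WD + CCl4 against WD + oil 0.0434% of all genes were called, for WD + CCl4 against ND + CCl4 0.261% and for the interaction 0.0608%. At an unadjusted p below 0.05 the members numbered 1 in the first (Slc39a4, at 0.78 ± 0.32), 0 in the second and 0 in the interaction, where 4.19%, 7.1% and 9.78% of all genes had such a p. In WD + oil against ND + CCl4 the number was 1 (Slc30a1), beside 11.1% of all genes. These comparisons with WD + CCl4 rest on its single library.

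None of the 12 other zinc transporter genes above the filter passed limma against ND + oil. Mt3 and Mt4, the metallothioneins of brain and of stratified epithelium, were listed at 0 in all 8 libraries. Of 12 other ZIP genes, 7 were tested and 0 passed limma in any comparison against ND + oil, with 1, 2 and 0 below an unadjusted p of 0.05 in WD + CCl4, WD + oil and ND + CCl4 (15.3%, 23.3% and 22.8% of all genes). Their median log2 fold changes were 0.28, 0.30 and 0.19. Slc39a1 (ZIP1), a plasma membrane importer, had 26.3 FPKM in WD + CCl4, 21.1 and 20.1 in WD + oil, 20.9 and 17.3 in ND + CCl4, and 16.5, 17.5 and 15.7 in ND + oil (0.64 ± 0.20 in WD + CCl4, limma adjusted p = 0.196). Slc39a7 (ZIP7), which releases zinc from the endoplasmic reticulum, had 24.9 FPKM in WD + CCl4, 23.5 and 24.9 in WD + oil, 22.7 and 15.6 in ND + CCl4, and 18.6, 16.5 and 21.9 in ND + oil. In FPKM, which is per length, Slc39a1 and Slc39a7 stood near Slc39a14. Slc39a8 (ZIP8), the paralogue of ZIP14, lay between 3.30 and 4.92 FPKM in all libraries. Slc39a5, another hepatic ZIP, was listed at 0.876 FPKM in WD + CCl4, 0.704 and 0.529 in WD + oil and at 0 in the 5 libraries of normal diet, below the filter. In the fit with no filter it was the 1 other ZIP gene called, in WD + CCl4 and in WD + oil against ND + oil. It entered that fit only through the western diet libraries in which it was above 0. These calls are therefore no support for a change with diet. No fold is given against libraries at 0.

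Of 9 other ZnT and related genes, 5 were tested and 0 passed limma, with 0, 0 and 2 below an unadjusted p of 0.05, beside 15.3%, 23.3% and 22.8% of all genes. Their medians were 0.28 in WD + CCl4, 0.02 in WD + oil and 0.30 in ND + CCl4. Slc30a5 and Slc30a9, the most abundant of them, ranged from 5.58 to 8.89 and from 4.81 to 8.50 FPKM. Slc30a5 (ZnT5) loads zinc into the secretory pathway. Of 15 tested genes of manganese, iron and copper handling, 0 passed limma, with 6, 7 and 2 below an unadjusted p of 0.05, beside the same 15.3%, 23.3% and 22.8% of all genes, and medians of 0.38, 0.49 and 0.41. Another list held 16 tested genes, of liver zinc enzymes and of a phosphomannomutase, which is not a zinc enzyme. Of these 16, 1 fell in WD + CCl4 and 1 rose in WD + oil. Of all tested genes, 0.929% and 4.41% were called in these comparisons. Car3, a carbonic anhydrase abundant in male liver, had 177 FPKM in WD + CCl4, against 1508, 1087 and 1377 in ND + oil (-2.88 ± 0.29, limma adjusted p = 0.00696). This call was lost with the replicate block. Over the 14 alternatives the Car3 change lay between -3.11 and -2.78. All of them rest on the single WD + CCl4 library, since the comparison cannot be made without it. Sod3, the extracellular superoxide dismutase, had 12.3 and 20.2 FPKM in WD + oil, against 3.91, 4.25 and 3.00 in ND + oil (1.84 ± 0.33, limma adjusted p = 0.0275). The Sod3 call was lost in 7 of 15 alternatives: with no filter, with the replicate block, and when any of the 2 WD + oil or 3 ND + oil libraries was left out (limma adjusted p up to 0.278). In ND + CCl4 0 of these 16 passed, with 6 below an unadjusted p of 0.05, beside 22.8% of all genes. The medians of the enzymes were -0.17, 0.03 and 0.18.

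**Figure D5:**
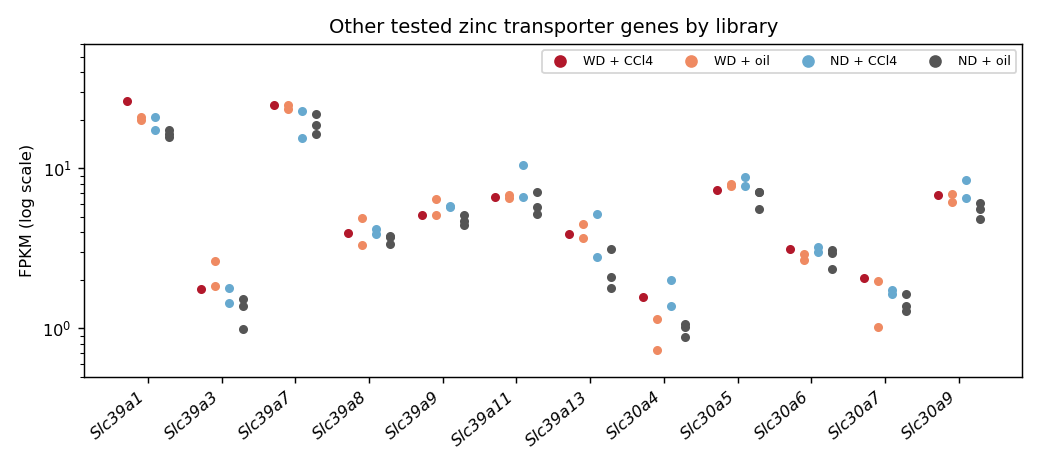
FPKM (log axis) of the 12 other zinc transporter genes that were tested, each point a library coloured by group. Levels run from 0.737 FPKM for Slc30a4 to 26.3 FPKM for Slc39a1, with 0 of the 12 genes called.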

How the data were processed

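Liver RNA of 8 libraries in 4 groups was sequenced after TruSeq Stranded mRNA library preparation, per the labels' protocols. The authors deposited FPKM for 55487 genes. The submitters' processing notes list HISAT2 2.2.1, StringTie 2.1.0, cutadapt 3.7 and FastQC 0.11.9 and the build GRCm38, without roles, and counts were not analysed here.

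All genes that reached 1 FPKM in 2 or more libraries (11514) entered 1 limma 3.58.1 fit (R 4.3.3) of log2(FPKM + 1) with a mean for each group, eBayes with a trend and 7.93 total degrees of freedom. The lone WD + CCl4 library takes its spread from the other groups. Tests were two-sided, adjusted by Benjamini-Hochberg within each of 7 contrasts. A fold change on this scale understates the change of low genes. Correlations of the members used exact permutation tests over 8 libraries (15 pairs). The script was tested on simulated data. Members and lists were chosen with earlier results of these data known. The rule for named genes took all members, genes of the lists and cell type markers called against ND + oil (at most 4 a list), transporters above the filter and, for each member, the 5 genes with the highest Pearson r. Lcn2, Orm2, Mtf1, Slc39a5, Spp1, Col1a1, Col3a1, Acta2 and Gm45774 fall outside it and were chosen after their values were seen.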

Additional observations from a re-analysis of the deposited data

How the results depend on the processing

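The Slc39a4 call in ND + CCl4 against ND + oil was the 1 member call. The number of members called there became 0 with no filter, with median-of-ratios scaling, with Mup genes removed and with the replicate block, and lay between 0 and 1 when a library was left out. In WD + CCl4 against ND + oil it also lay between 0 and 1. At an unadjusted p below 0.05 the counts were 3 in WD + CCl4, 1 in WD + oil and 2 in ND + CCl4 against ND + oil, and 1 each in WD + CCl4 against WD + oil and in WD + oil against ND + CCl4. The cause of these shifts was not tested. Deviations from group means of same-numbered libraries correlated between -0.279 and -0.0140. Within WD + oil and within ND + CCl4 these deviations mirror each other. The check thus cannot show whether the replicate numbers pair the libraries. With the replicate block Slc39a4 was at 1.64 (limma adjusted p = 0.0721), and Mt1 and Mt2 in ND + CCl4 turned to -0.48 and -0.51. Of 695 alternative values, those of called list genes included, 26 changed sign, none of them a called value, and 45 lost a call. Median-of-ratios scaling gave -0.072 and -0.018 for Slc30a1 in ND + CCl4 and WD + CCl4 against ND + oil, 0.053 for it in WD + CCl4 against ND + CCl4, and -0.19 and 0.33 for Slc39a14 in WD + oil and the interaction. Mup removal gave Slc39a14 -0.078 and 0.11 there. With each library left out in turn, Mt1 and Mt2 in ND + CCl4 against ND + oil ranged from -0.48 to 2.09 and from -0.51 to 2.53, and their interactions from -0.12 to 2.45 and from -0.51 to 2.54. In WD + CCl4 against ND + CCl4, Slc30a1 ranged from -0.10 to 0.053 and Slc39a14 from -0.036 to 0.11. Slc30a10 in WD + CCl4 against WD + oil ranged from -0.27 to 0.70. Slc39a14 ranged from -0.14 to 0.12 in the interaction and from -0.085 to 0.17 in WD + oil against ND + oil. A minimum mean of 5 FPKM left Slc30a1 and Slc30a10 untested. Depth is unknown.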
